A study of Mus musculus with 16 samples.

Results

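The cytosolic ribosome is built from a small and a large subunit, each made of ribosomal RNA and a fixed set of proteins, nearly all of which enter the particle in equal numbers. In mammals nearly every ribosomal protein is encoded by 1 active gene, and that gene has left many processed pseudogenes in the genome. Most of these mRNAs begin with a cytosine and an uninterrupted run of pyrimidines, the terminal oligopyrimidine tract, through which mTORC1 signaling and the RNA-binding protein LARP1 set their translation. The cytosolic ribosomal protein genes were taken by name, as every row named Rpl or Rps with a number and at most 1 letter, together with *Rpsa*, *Rplp0*, *Rplp1* and *Rplp2*, without the rows named as pseudogenes. This gave 71 of the 19373 genes in the table, 27 of the small subunit and 44 of the large one. In the mouse annotation GENCODE M21, 80 coding genes fit the same naming rule, and 11 of them (*Rpl10a*, *Rpl10l*, *Rpl24*, *Rpl36a*, *Rpl38*, *Rpl3l*, *Rps13*, *Rps23*, *Rps27*, *Rps27a* and *Rps6*) were not analysed here.

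The values come from RNA sequencing of gonadal white adipose tissue (gWAT) of 16 male mice on the C57BL/6J background, 1 library per mouse, with the mice of a group numbered from 0 to 3 as in the sample titles. The 4 groups of 4 mice were control mice, which carry the floxed *Mboat7* allele without Cre, and adipocyte-specific *Mboat7* knockout (ASKO) mice, which carry the same allele with Cre under the adiponectin promoter, each on chow (Teklad) or on a high-fat diet (HFD, Research Diets D12492) for 20 weeks. Cells of the tissue other than adipocytes keep *Mboat7* in this model. The comparisons ask how the diet, the loss of an enzyme that remodels phosphatidylinositol in adipocytes, and both together relate to the mRNA of the ribosome. In a whole tissue, fewer cells of a type and less RNA per cell cannot be told apart.

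The table gives FPKM values (fragments per kilobase of transcript, scaled to the fragments mapped) and no counts. Many low values were close to multiples of a single unit, worth 2.48 to 4.31 FPKM for a transcript of 1 kb depending on the mouse. Of the low values, 48.9% to 80.6% lay within 0.2 of a whole unit. Evenly spread values would give 40% for a unit fixed in advance. The unit of each mouse was chosen to match these same values best, so 40% is too low a comparison. It is least certain in ASKO chow mouse 1 (48.9%). By these units a gene of a few FPKM rests on very few fragments. A single noncoding row, *AY036118*, which lies at the ribosomal RNA locus, took between 9.61% and 32.6% of the FPKM of a mouse, with the 2 highest shares in control HFD mouse 1 and ASKO HFD mouse 3. *Mboat7* itself was low, with 2.42, 4.33, 0.902 and 4.99 FPKM in the control mice on chow and 0, 1.39, 0 and 2.89 FPKM in the ASKO mice on chow. On HFD the control mice had 0, 0, 2.15 and 1.61 FPKM of *Mboat7* and the ASKO mice 1.14, 0, 2.60 and 0 FPKM, so the groups overlapped on both diets. Among the cell type markers, 11 of 12 macrophage markers were higher and 9 of 12 adipocyte markers lower on HFD over both genotypes, and *Lep* was the adipocyte marker called higher (limma, by the call rule given with the comparisons). The summed FPKM of the macrophage markers was 264 to 319 in control and 243 to 309 in ASKO mice on chow, and 712 to 1174 in control and 928 to 1407 in ASKO mice on HFD. That of the adipocyte markers was 10703 to 18361 and 9414 to 26173 on chow, and 4695 to 10766 and 6508 to 7305 on HFD. The part of this shift in the members' values was not tested.

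By their own rows, without near-identical copies, the members shared little with each other in level. The mean over 16 mice ran from 476 FPKM for *Rpl13a*, which also serves in translational silencing of inflammatory mRNAs, to 0.329 FPKM for *Rpl12*, a protein at the base of the ribosomal stalk. After *Rpl13a* came *Rpl8* with 258 FPKM, *Rps15* with 239 FPKM, *Rpl36* with 214 FPKM and *Rpl41*, which encodes the smallest ribosomal protein, with 207 FPKM. The ranges of these last 4 over the mice overlapped. The mean passed 100 FPKM for 15 members and lay under 10 FPKM for 27, and the median of the 71 means was 31.0 FPKM.

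**Figure D1:**
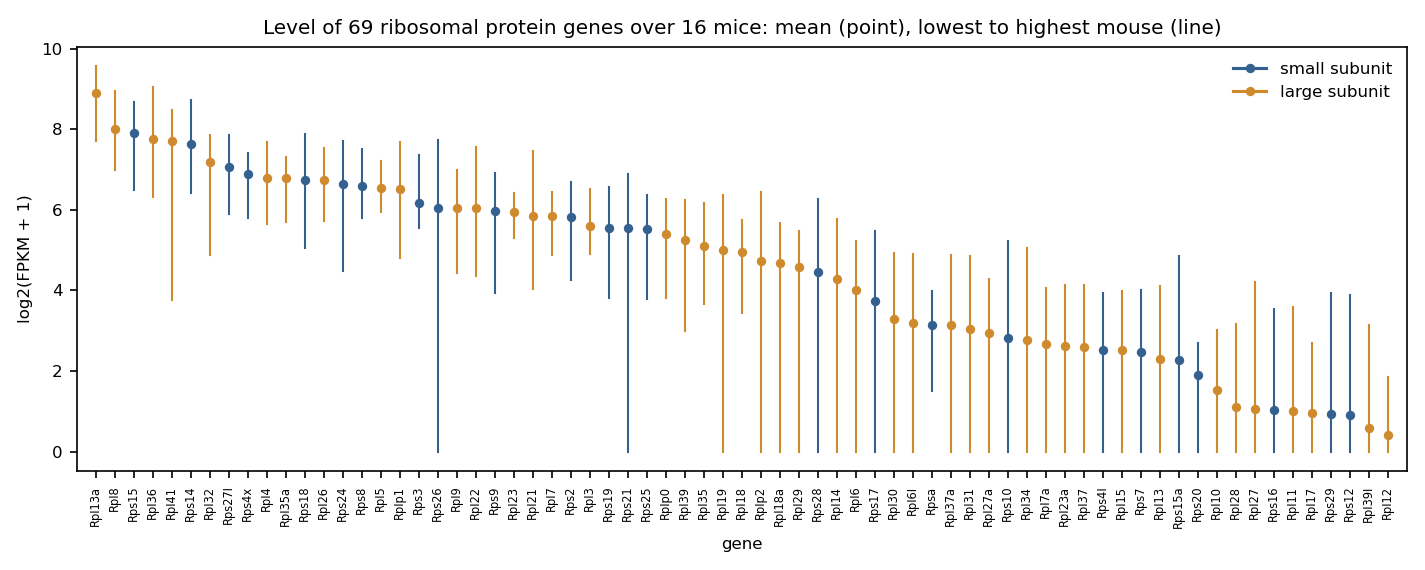
Level of each of 69 ribosomal protein genes on the log2(FPKM + 1) scale, ordered by mean. Points are means over 16 mice, lines run from the lowest to the highest mouse, and colors mark the subunit. Lines that reach 0 belong to members listed at 0 in at least 1 mouse.

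For the most abundant members the values of single mice show the spread. Control mice on chow had 405, 723, 292 and 446 FPKM of *Rpl13a*, and ASKO mice on chow had 209, 474, 729.6 and 424 FPKM. On HFD, control mice had 729, 453, 458 and 474 FPKM and ASKO mice 354, 755, 311 and 382 FPKM. Both genotypes and diets therefore covered nearly the same range, and the highest mouse of every group lay above the lowest mouse of every other. *Rps14*, which lines the mRNA channel of the small subunit, was at 117 to 189 FPKM in control mice on chow, 84.7 to 306 FPKM in ASKO mice on chow, 126 to 314 FPKM in control mice on HFD and 156 to 421 FPKM in ASKO mice on HFD. *Rpl41* was at 12.6 FPKM in control chow mouse 0 and at 262 to 346 FPKM in the other 3 mice of that group. *Rplp0*, the stalk protein whose mRNA is often used as a reference in quantitative PCR, ranged from 13 to 50.4 FPKM in control mice on chow and from 24.9 to 76.1 FPKM in ASKO mice on HFD.

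By position in the ribosome, members again differed widely in level. Around the exit tunnel for the growing chain, *Rpl4* had 110.0 FPKM, *Rpl26* 105 FPKM, *Rpl39* 37.1 FPKM, *Rpl35* 33.6 FPKM, *Rpl19* 31.0 FPKM, *Rpl31* 7.22 FPKM, *Rpl23a* 5.20 FPKM and *Rpl17* 0.948 FPKM as the mean of 16 mice. Of the stalk, which recruits elongation factors, *Rplp1* had 90.3 FPKM, *Rplp0* 41.1 FPKM and *Rplp2* 25.6 FPKM. Of the proteins that line the mRNA channel, *Rps3* had 71 FPKM, *Rps26* 65.4 FPKM, *Rps2* 55.2 FPKM and *Rps28* 21 FPKM. *Rpl5* and *Rpl11*, which bind the small ribosomal RNA of the large subunit together and can inhibit MDM2, had 92.0 and 1.01 FPKM. The proteins are present in the ribosome in equal numbers, apart from the paired stalk proteins *Rplp1* and *Rplp2*. The levels in the genes' own rows do not follow that ratio. For some of these genes, near-identical copies, described below, hold most of the sum. With copies added, *Rpl5* had 261 FPKM and *Rpl11* 318 FPKM. Around the exit tunnel the means with copies ran from 31.3 FPKM for *Rpl23a* to 160 FPKM for *Rpl26*, so levels still differed. Among paralogs, *Rps27l*, a p53 target, had 133 FPKM, *Rps4x* 118 FPKM, *Rps4l* 4.79 FPKM and *Rpl39l*, known from testis, 0.494 FPKM.

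Many members were listed at 0 in mice although the ribosome needs the products of most of them. Among those at 0 in some mice, *Rpl39l* is known from testis, and *Rps4l* and *Rpl6l* have no annotated coding sequence here. At least 1 mouse was at 0 for 36 members, and 9 members (*Rpl11*, *Rpl12*, *Rpl17*, *Rpl27*, *Rpl28*, *Rpl39l*, *Rps12*, *Rps16* and *Rps29*) were at 0 in at least 12 mice. *Rps12* was listed only in control HFD mouse 3, at 13.9 FPKM, and *Rps29* only in ASKO chow mouse 2, at 14.4 FPKM. *Rpl11* was listed only in control chow mouse 2, at 4.99 FPKM, and in ASKO chow mouse 2, at 11.1 FPKM. *Rpl17* was listed in 3 mice on chow at 4.78 to 5.48 FPKM, *Rps16* in 3 ASKO mice at 2.92 to 10.6 FPKM and *Rpl12* in 2 ASKO mice at 2.63 FPKM each. *Rpl27* was listed only in control HFD mouse 0, at 17.6 FPKM, and *Rpl39l* only in control chow mouse 2, at 7.9 FPKM. The number of members at 0 ran from 10 in ASKO chow mouse 2 to 22 in ASKO HFD mouse 2, and the group means were 16.3 ± 3.5 for control mice on chow, 15.8 ± 4.03 for ASKO mice on chow, 17.0 ± 3.16 for control mice on HFD and 15.5 ± 4.43 for ASKO mice on HFD (SD, n = 4). Of related genes, *Fau*, which encodes the small-subunit protein RPS30 as a fusion, was listed in 1 mouse only, at 7.64 FPKM, whereas *Rack1*, a scaffold on the small subunit, was between 12.8 and 41.0 FPKM in every mouse and *Eef1a1*, an elongation factor of the same tract family, between 273 and 550 FPKM.

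Many members have near-identical copies in the genome. Of the 69 members with an annotated coding sequence, 61 have at least 1 other annotated transcript that matches at least 80% of that sequence at 95% identity or more, with a median of 6 copies among these 61, and 55 have such a copy listed in the table. For 33 members the copies' summed mean was above the member's own. *Rpl11* had 1.01 FPKM against 317 FPKM in its copies, *Rps16* 1.05 against 211 FPKM, *Rpl12* 0.329 against 103 FPKM, *Rpl14* 18.5 against 269 FPKM and *Rpl23* 61.1 against 357 FPKM. Whether reads of the active gene were assigned to the copies was not tested, and the split between a gene and its copies is uncertain in every value of such a member. With the 129 copy rows added mouse by mouse, 2 of 71 sums (*Rpl39l* and *Rpl27*) were still at 0 in at least 12 mice, 50 were above 0 in every mouse against 35 of the members' own rows, and the median of the means was 78.8 FPKM. The mean then passed 100 FPKM for 32 sums and lay under 10 FPKM for 8. Rows on the opposite strand overlap exons of 13 members, and 6 of the 14 such rows had a higher mean than the member. Among them were *Nkiras1* with 468 FPKM over *Rpl15* with 4.77 FPKM, and *Fam69a* with 278 FPKM over *Rpl5* with 92.0 FPKM. The library kit keeps strand, the strand setting of the counting is not given in the sources used here, and the part of opposite-strand reads in these values was not tested. Over the 1451 coding genes of the table with a noncoding row on the opposite strand, the noncoding row was the higher one in 72%.

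**Figure D2:**
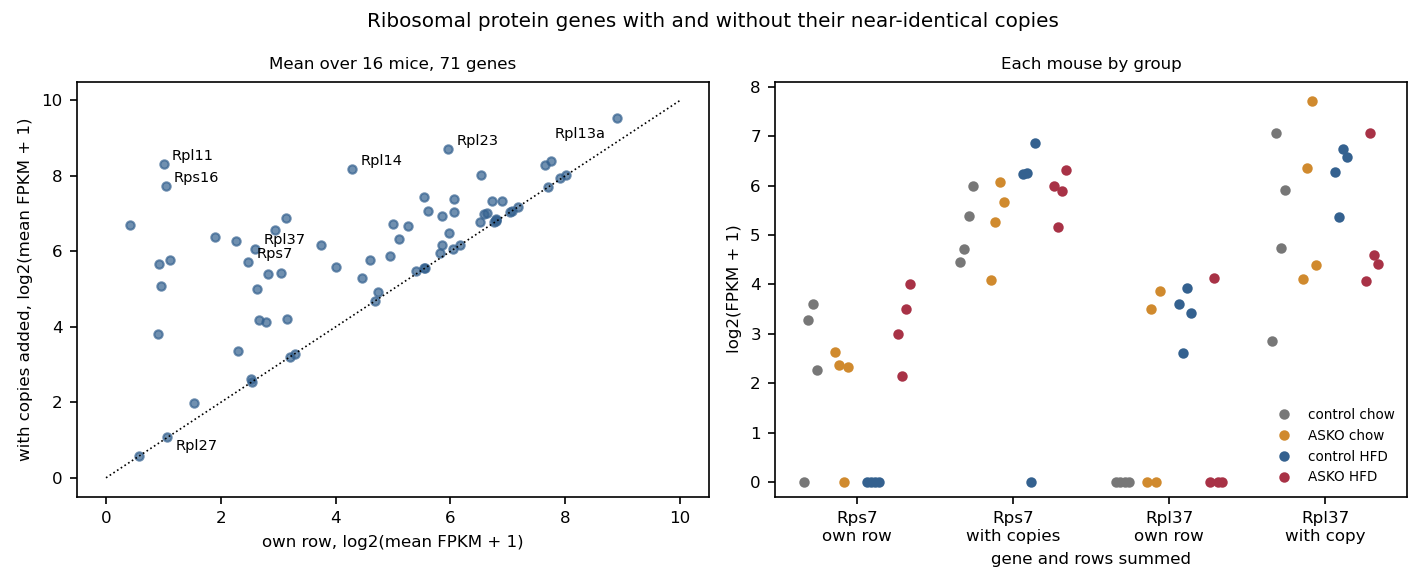
Left, the mean over 16 mice of each of 71 genes from its own row (horizontal) and with its near-identical copies added (vertical), on the log2(mean FPKM + 1) scale, with the dotted line at equality. Right, *Rps7* and *Rpl37* in each mouse by group, from the own row and with copies. *Rpl11* and *Rps16* lie far above the line, and *Rpl27*, which has no copy in the table, lies on it.

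Long pyrimidine runs lay near the annotated starts of the members more often than near other starts. In the RefSeq table for GRCm38.p6, 50 of the 71 members had 60 starts, and 24 of these (40.0%) held an unbroken run of at least 8 C or T on the sense strand within 15 bases on either side, against 12% of all 32851 starts. Of 17 starts in a list of other translation genes, 5 (29.4%) did. Windows of 30 bases are shown for 8 members described here, 4 with long runs and 4 with short ones, with the longest run of C and T in capitals.
Rpl35, chr2:39005117-39005146 (minus): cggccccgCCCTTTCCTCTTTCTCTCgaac
Rpl15, chr14:18270972-18271001 (minus): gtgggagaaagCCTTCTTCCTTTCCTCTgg
Rpl13a, chr7:45128731-45128760 (minus): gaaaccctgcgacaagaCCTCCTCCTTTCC
Rpl4, chr9:64173372-64173401 (plus): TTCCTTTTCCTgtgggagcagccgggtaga
Rpl37, chr15:5116598-5116627 (plus): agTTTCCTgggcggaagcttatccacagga
Rps7, chr12:28635939-28635968 (minus): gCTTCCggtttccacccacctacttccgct
Rpl23, chr11:97782425-97782454 (minus): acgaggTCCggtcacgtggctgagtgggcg
Rpl5, chr5:107900513-107900542 (plus): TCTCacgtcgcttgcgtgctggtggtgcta
The first 4 hold runs of 18, 17, 13 and 11 bases, and the last 4 runs of 6, 5, 3 and 4 bases. A window without a long run says only that these letters are not next to the annotated start. A run counts anywhere in the window, also before the start, as with *Rpl4*, and need not begin with a cytosine. The share of starts with a run is therefore not a share of mRNAs that begin with the tract.

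To ask whether diet or genotype went with the members' mRNA, 63 members (24 of the small and 39 of the large subunit) entered a limma fit, together with every other gene that reached 1 FPKM in 4 or more of the mice. The 8 members not tested were the members at 0 in at least 12 mice other than *Rpl28*. The call rule asked for a Benjamini-Hochberg adjusted p under 0.05 together with a difference larger than 0.5 in either direction on the log2(FPKM + 1) scale. No member was called in any of the 7 comparisons. The share of all tested genes called was 2.91% for diet in control mice, 3.43% for diet in ASKO mice, 7.53% for diet averaged over genotypes, 0.00761% for genotype on chow, 0.00761% for genotype on HFD, 0% for genotype averaged over diets and 0% for the genotype-by-diet interaction. For genotype and the interaction nearly no gene of the table was called either, while diet called 383 genes in control mice, 451 in ASKO mice and 990 over both genotypes.

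At an unadjusted p under 0.05 the members again lay near or under the background. For diet in control mice 5 of 63 members passed, against 14.2% of all genes. For diet in ASKO mice 3 members passed, against 15% of all genes, and for diet averaged over genotypes 6 passed, against 19.4%. For genotype on chow no member passed, against 4.8% of all genes. For genotype on HFD 5 members passed, against 5.15%, for the interaction 4, against 6.3%, and for genotype averaged over diets 3, against 3.76%. The lowest adjusted p of a member was 0.0777 (*Rpl37*, diet in control mice) and 0.0878 (*Rpl23*, diet averaged over genotypes), and was between 0.269 and 1 in the other comparisons (limma).

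The median log2 fold change of the members was small beside their spread. On HFD against chow it was 0.23 in control mice and 0.07 in ASKO mice, with 41 and 36 of 63 members on the higher side, where the median of all genes was 0.00 and 0.03. In ASKO against control mice it was 0.17 on chow and 0.01 on HFD, with 37 and 32 members on the higher side. The median of the interaction was -0.17 among members and 0.04 among all genes. These comparisons share mice, and the pooled SD of the members' median between mice of a group was 0.419 on the same scale. The median standard error of a member's fold change was 0.58 for 4 mice against 4 and 0.41 for 8 against 8. For diet averaged over genotypes, the 95% interval lay within 1 of zero on the log2 scale for 22 of 63 members, and for genotype averaged over diets for 23, all of them among the members above 0 in every mouse, so that for most members a change of 1 on the log2 scale cannot be set aside at this precision.

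**Figure D3:**
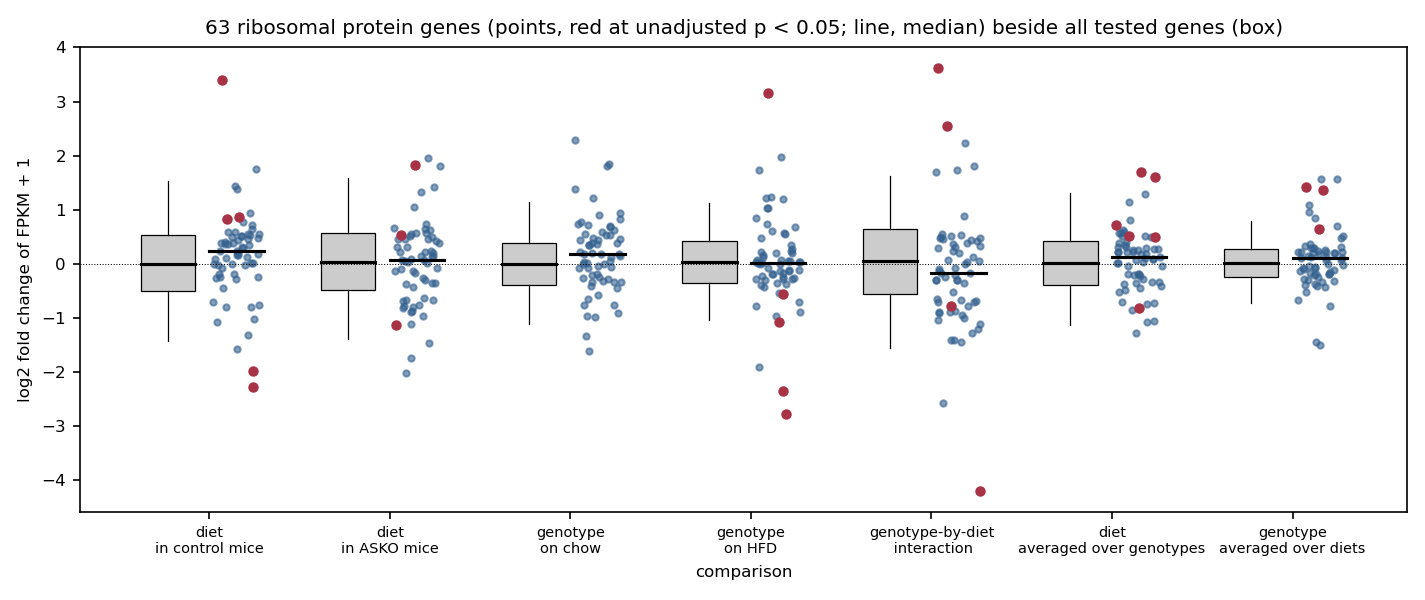
Log2 fold change on the log2(FPKM + 1) scale of the 63 tested ribosomal protein genes (points) beside all tested genes (box, quartiles, whiskers from the 5th to the 95th percentile) in 7 comparisons. Red points have an unadjusted p under 0.05, thick lines are medians, and no point passes the adjusted threshold.

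Among small-subunit members, *Rps3*, at the mRNA entrance, was at 47.7 to 59.0 FPKM in control mice on chow and 57.9 to 94.3 FPKM on HFD. In ASKO mice it was at 45.9 to 86.1 FPKM on chow and 64.6 to 162 FPKM on HFD, which overlapped. Its log2 difference by diet averaged over both genotypes was 0.50 ± 0.22 (SE, limma, adjusted p = 0.209). *Rps19*, the gene most often mutated in Diamond-Blackfan anemia, lay on the other side. It was at 55.2, 86.2, 50.3 and 51.6 FPKM in control mice on chow and at 36.0, 39.2, 24.5 and 39.8 FPKM in control mice on HFD, without overlap, while in ASKO mice chow values of 24.1 to 93.7 FPKM and HFD values of 13 to 70.7 FPKM overlapped. Its averaged log2 difference was -0.82 ± 0.35 (SE, limma, adjusted p = 0.195). *Rps27l* was at 58.6 to 159 FPKM in control mice on chow and 85.7 to 229 FPKM in ASKO mice on chow. On HFD it was at 68.4 to 129 FPKM in control mice and 96.3 to 194 FPKM in ASKO mice, so the genotypes overlapped on both diets. Its log2 difference by genotype over both diets was 0.64 ± 0.27 (SE, limma, adjusted p = 1).

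*Rpl23*, a large-subunit protein that also binds MDM2, had the smallest spread within groups of all tested members (SD 0.223 on the log2 scale). It was at 50.8, 47.6, 47.1 and 41.7 FPKM in control mice on chow, and at 56.5, 63.1, 65.0 and 79.1 FPKM in controls fed HFD, and these did not overlap. In ASKO mice it was at 38.7, 59.9, 68.4 and 50.7 FPKM on chow and at 84.3, 77.9, 65.5 and 81.4 FPKM on HFD, where 1 chow mouse lay above the lowest HFD mouse. The log2 difference averaged over genotypes was 0.50 ± 0.17 (SE, limma, adjusted p = 0.0878), and groups took 66.3% of its variance, the largest share of any member. With its copy added, which holds most of the sum, the difference was 0.46 ± 0.24 (SE, limma, adjusted p = 0.318).

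Other large-subunit members stood out at an unadjusted p under 0.05 in single comparisons, and none was called. *Rpl5* was at 119, 104, 120 and 108 FPKM in control mice on HFD and at 77.1, 67.9, 86.8 and 71.9 FPKM in ASKO mice on HFD, without overlap. On chow it was at 60.3 to 106 FPKM in control mice and 73.3 to 148 FPKM in ASKO mice, which overlapped. The log2 difference on HFD was -0.57 ± 0.26 (SE, limma, adjusted p = 0.954), and that of the interaction -0.79 ± 0.37 (SE, limma, adjusted p = 0.791). With its copies, *Rpl5* in the HFD groups was at 394, 182, 301 and 322 FPKM in control mice and at 282, 305, 296 and 203 FPKM in ASKO mice, which overlapped, and the difference was -0.11 ± 0.29 (SE, limma, adjusted p = 0.998). *Rpl35*, at the exit tunnel, was at 66.7, 71.3, 30.4 and 13.9 FPKM in control mice on HFD and at 26.2, 19.7, 15.1 and 11.6 FPKM in ASKO mice on HFD, and these overlapped. Its 4 ASKO mice on HFD all lay below the 4 on chow, which were at 28.9 to 53.6 FPKM. With copies added, *Rpl35* was at 31.3 to 223 FPKM in ASKO mice on chow and 36.1 to 90.4 FPKM in ASKO mice on HFD, which overlapped. *Rpl22*, a protein not needed for ribosome assembly but for lymphocyte development, was at 54.1 to 189 FPKM in ASKO mice on chow and 21.6 to 71.7 FPKM in ASKO mice on HFD, a log2 difference of -1.15 ± 0.49 (SE, limma, adjusted p = 0.272). *Rpl26*, also at the exit tunnel, was at 51.8, 57.5, 53.8 and 117 FPKM in control mice on chow and 125, 139, 60.1 and 186 FPKM in control mice on HFD (log2 difference 0.83 ± 0.38, SE, limma, adjusted p = 0.326). With copies added, the difference of *Rpl26* was 0.45 ± 0.37 (SE, limma, adjusted p = 0.673).

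The members with the largest fitted differences were low and listed at 0 in whole groups, so that no fold is given for them. *Rps7*, a small-subunit protein needed for processing of its ribosomal RNA, was at 0, 8.77, 11.2 and 3.78 FPKM in control mice on chow and at 0 in all 4 control mice on HFD. In ASKO mice it was at 5.21, 4.19, 0 and 4.03 FPKM on chow and at 7.02, 3.39, 10.4 and 15.1 FPKM on HFD, which put the HFD groups apart (limma, adjusted p = 0.484 for genotype on HFD). *Rpl37*, a zinc finger protein of the large subunit, was at 0 in all 4 control mice on chow and at 11.1, 5.15, 14.3 and 9.72 FPKM in control mice on HFD. In ASKO mice it was at 0, 10.3, 0 and 13.7 FPKM on chow and at 0, 16.6, 0 and 0 FPKM on HFD. *Rpl37a* was at 0 in all 4 ASKO mice on HFD, and at 0 to 28.5 FPKM in control mice on HFD. *Rpl10* was at 0 in all 4 ASKO mice on chow, and at 0 to 6.83 FPKM in ASKO mice on HFD.

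With copies added, *Rps7*, *Rpl37* and *Rpl37a* were no longer at 0 in a whole group, and *Rpl10* still was. *Rps7* with its copies was at 74.3, 75.9, 0 and 116 FPKM in control mice on HFD and at 63.1, 34.9, 58.7 and 78.6 FPKM in ASKO mice on HFD, with a log2 difference of 1.0 ± 1.06 (SE, limma, adjusted p = 0.994). Without control HFD mouse 2, which was at 0, this difference of *Rps7* with copies had the opposite sign, at -0.61 ± 0.47 (SE, limma, adjusted p = 0.909). *Rpl37* with its copy was at 6.26, 132, 25.5 and 59.1 FPKM in control mice on chow and at 76.8, 40.4, 106 and 95.4 FPKM in control mice on HFD (log2 difference 1.11 ± 0.89, SE, limma, adjusted p = 0.656). *Rpl37a* with its copy had a log2 difference of 0.41 ± 0.60 by genotype on HFD (SE, limma, adjusted p = 0.994). *Rpl10* with its copies was at 0 in all 4 ASKO mice on chow and at 3.66, 6.83, 3.42 and 0 FPKM in ASKO mice on HFD. No member with copies added was called in any comparison, of 69 tested, against 2.94% of all genes for diet in control mice, 3.46% for diet in ASKO mice and 7.58% for diet averaged over genotypes. Adding the copies, and leaving out a mouse from that fit, were chosen after the data had been seen.

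Mice without overlap between groups were no more frequent among members than among all genes. For diet in control mice this held for 3 of 63 members (*Rpl23*, *Rpl37* and *Rps19*), against 8.34% of all genes, and for diet in ASKO mice for 1 (*Rpl35*), against 9.6%. For genotype on HFD it held for 2 members (*Rpl5* and *Rps7*), against 3.38% of all genes, and for genotype on chow for none, against 2.19%. With 8 mice on each side it held for no member by diet, against 2.22% of all genes, or by genotype, against 0.00761%. Groups took a median of 14.9% of a member's variance (quartiles 8.82% and 27.9%), where the median of all tested genes was 21.6%. The median SD within groups was 0.885 for members and 0.808 for all tested genes on the log2 scale.

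Single mice of a group differed more in the members' sum than the group means did, although a mean of 4 mice varies less than 1 mouse. The summed FPKM of the 71 members was 2757, 4769, 3585 and 4008 in control mice on chow, and 2580, 4315, 6535 and 4279.6 in ASKO mice on chow, with HFD values of 5426, 3688, 2994 and 5174 in control mice and 3655, 6182, 3171 and 4091 in ASKO mice. The highest and the lowest sum were both found in ASKO mice on chow. The group means were 3779.6 ± 839.8, 4427 ± 1622, 4320.3 ± 1171 and 4275 ± 1326 in the same order (SD, n = 4), so the means lay within 1 SD of each other. Of the total FPKM, the members took between 0.369% and 0.948%. In the 35 members above 0 in every mouse, the highest mouse of a group was a median of 2.27 times the lowest in control mice on chow, 2.68 times in ASKO mice on chow, 2.49 times in control mice on HFD and 2.46 times in ASKO mice on HFD.

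**Figure D4:**
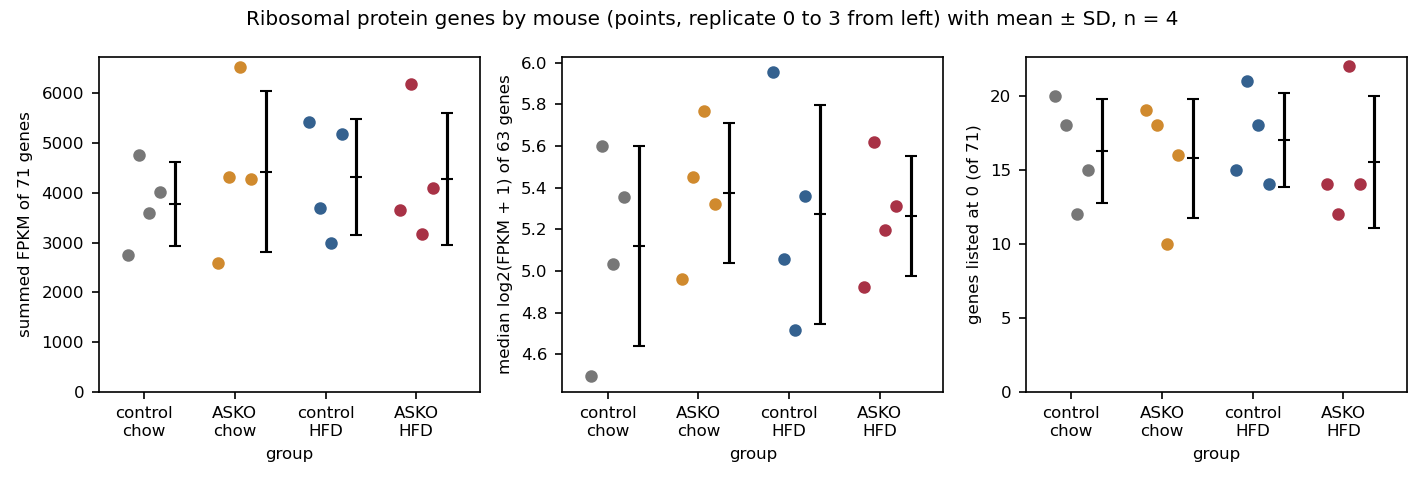
Summed FPKM of 71 ribosomal protein genes, median log2(FPKM + 1) of the 63 tested ones and number listed at 0, for each of 4 mice in each group (points), with mean and SD beside them. The sums run from 2580 to 6535, both in ASKO mice on chow, and the 4 groups overlap in every panel.

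The mice that were high or low for one member tended to be so for many. In ASKO chow mouse 2, 33 of the 35 members above 0 in every mouse lay above their group mean, in ASKO HFD mouse 1 31, and in control HFD mouse 0 29. In control HFD mouse 2 only 4 did, in ASKO chow mouse 0 5, in control chow mouse 0 6 and in ASKO HFD mouse 2 9. After the group means were removed, the mean of the small-subunit members and that of the large-subunit members had Pearson's r = 0.871 and Spearman's rho = 0.891 over 16 mice, and r = 0.822 without the 2 mice farthest from the median. Between pairs of members the median r was 0.19 over 1953 pairs of tested members and 0.34 over 595 pairs of those above 0 in every mouse, where the mean over all pairs of tested genes was 0.00. All of these values share libraries and their scaling, so they are a description. *Rpl36* (r = 0.87 with the mean of the other members), *Rps14* (0.82), *Rpl39* (0.82) and *Rps15* (0.82) moved most with the rest, and *Rpl30* (-0.25), *Rps28* (-0.25) and *Rpl23a* (-0.22), each at 0 in some mice, least.

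**Figure D5:**
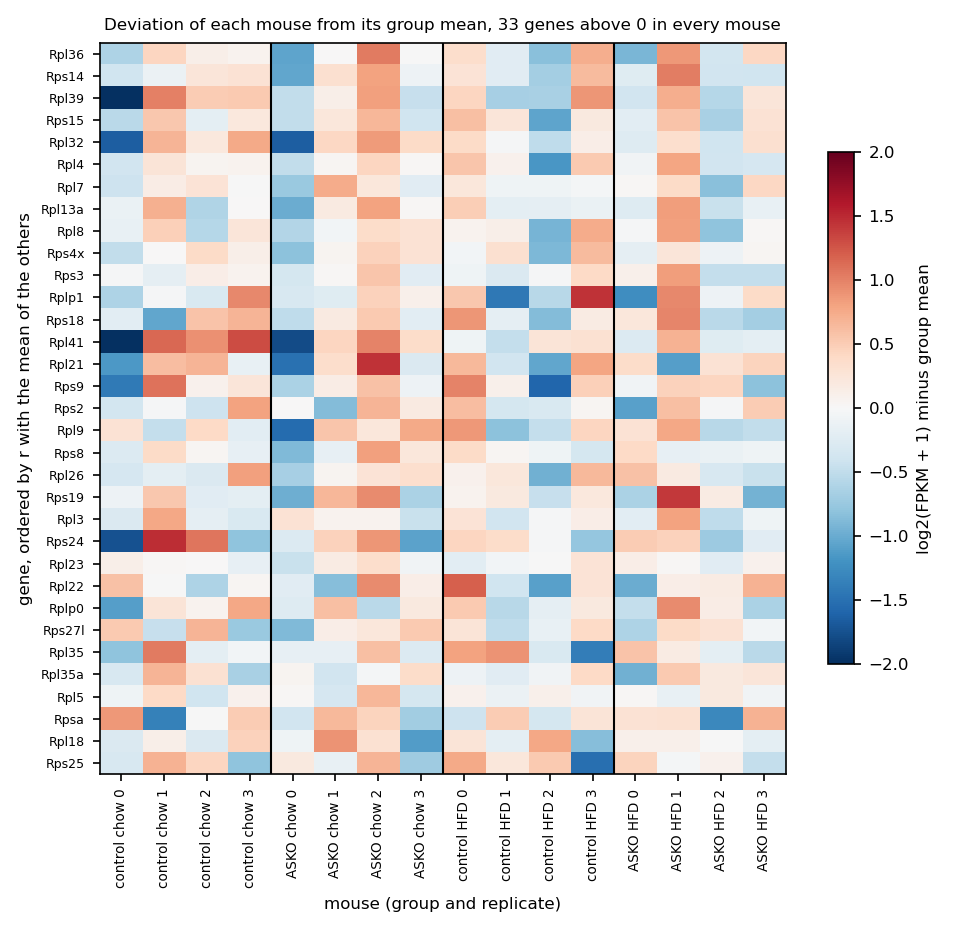
Deviation of each mouse from its group mean on the log2(FPKM + 1) scale (red above, blue below) for 33 ribosomal protein genes above 0 in every mouse, ordered by r with the mean of the other members. Black lines part the 4 groups. ASKO chow mouse 2 and ASKO HFD mouse 1 are red, and ASKO chow mouse 0 and control HFD mouse 2 blue, over most rows.

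The fragment unit and the share of *AY036118* were compared with these differences. ASKO chow mouse 0, low in members, had the largest step per fragment (4.31 FPKM on 1 kb), control chow mouse 0, also low, the next largest (3.47 FPKM), and control HFD mouse 0 and ASKO HFD mouse 1, high in members, the smallest (2.48 and 2.49 FPKM). ASKO chow mouse 2, the highest by sum, was at 3.2 FPKM. ASKO HFD mouse 2 and control HFD mouse 2, also low in members, were at 2.73 and 3.22 FPKM. The 2 mice with the highest share of *AY036118* had member sums of 3688 and 4091, near the median of 4049, and member shares of 0.376% and 0.479% of all FPKM, under the median of 0.591%. The part of depth in the result was not tested. From the members' own rows, the gap between the highest and the lowest mouse in their median was 1.46 on the log2 scale as deposited. It was between 1.37 and 1.62 under 5 other settings, 1 of them a pseudocount of 0.1 in place of a scaling. Control chow mouse 0 was lowest and control HFD mouse 0 highest in each of these. With copies added, control chow mouse 0 was again lowest (5.49), and ASKO chow mouse 2 was highest (7.15).

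Genes that work with the ribosome were taken as whole lists, and their counts are to be read beside the 7.53% of all genes called for diet averaged over genotypes. Of 21 other translation genes tested, none was called higher and 2 lower on HFD over both genotypes (*Eif4a2*, an RNA helicase of translation initiation, and *Eif3k*, a subunit of an initiation factor). Of 25 ribosome biogenesis genes 1 was called lower (*Rrs1*, an assembly factor of the large subunit). Of 14 growth control genes *Akt1* was called higher and *Eif4ebp1*, the mTORC1 target that holds back cap-dependent translation, lower. No gene of these lists was called for genotype on either diet. The median r with the members' mean, after the group means were removed, was 0.25 for the 21 translation genes, 0.10 for the 25 biogenesis genes, -0.07 for 12 macrophage markers and 0.18 for 12 adipocyte markers, where the median of all other genes was -0.04. It was highest for the 4 erythrocyte markers tested (0.60, 3 of 4 above 0) and the 6 other ribosomal genes tested (0.58, 5 of 6 above 0). The summed FPKM of 5 erythrocyte markers was 7.39 to 36.5 and 34.3 to 171 in control and ASKO mice on chow, and 0 to 74.4 and 5.92 to 29.7 on HFD, with the highest sum in ASKO chow mouse 2, the mouse with the highest sum of members. The part of blood cells in the members' values was not tested.

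The rows most like the members were named by r with the members' mean over the 16 mice after removal of group means. Only members and rows named as ribosomal pseudogenes were left out. They were *Eme1* (0.92), *Zfp979* (0.90), *Loxl3* (0.90), *Snx22* (0.88), *Rad9a* (0.88), *Cdk4* (0.87), *Rarres2* (0.87), *Rrp12* (0.87), *Gm10275* (0.86) and the pseudogene *Tpt1-ps3* (0.85). Of these, *Cdk4* is a cell cycle kinase, and *Rrp12*, a ribosome assembly factor, had a mean of 0.753 FPKM, which rests on very few fragments. The means of *Snx22* and *Cdk4* were 1246 and 1240 FPKM, above that of every member, and that of *Rad9a* was 343 FPKM. The part of opposite-strand reads in these rows was not tested, so their values may not be those of the named genes. *Gm10275* is a processed pseudogene whose mean of 101.82 FPKM is that of the highest copy of *Rpl12*. It is therefore not read as a gene outside the family. The least alike were *A930037H05Rik* (-0.96), *Gm44317* (-0.93), *Msmp* (-0.93), *Gm15598* (-0.93) and *Adap2os* (-0.92). All these rows are the extremes of a search over 13085 tested genes outside the members, where r ran from -0.96 to 0.92. With so many genes and only 16 mice, a high or low r does not by itself tie a row to the members.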

How the data were processed

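RNA of gWAT from 16 mice was sequenced from directional mRNA libraries. The authors trimmed the reads, ran STAR on mm10 with GENCODE as guide, and made FPKM values with Cufflinks, and the deposited table holds 1 FPKM column per mouse. Per the labels Cuffdiff was also run. The library normalization of Cufflinks and the strand setting are not given in the sources used here. The table holds no counts, so depth is known only from the steps of low values.

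FPKM values were used as log2(FPKM + 1), which understates the change of low genes. Genes that reached 1 FPKM in 4 or more of the mice were compared with limma 3.58.1 (R 4.3.3), with 4 groups in 1 fit and an intensity trend, and p-values were adjusted by Benjamini-Hochberg over all genes tested within each of 7 contrasts. The fit was tested on simulated data. The members, gene lists and tests were chosen with earlier results of these data known. Named members were those with a listed role, up to 5 higher and 5 lower per contrast at an unadjusted p under 0.05, the 5 highest and 5 lowest by mean, and, among other genes, the 10 most like and 5 least like the members' mean, *Mboat7*, *Fau*, *Rack1* and called members of the lists. *Rpl27*, *Rps16*, *Rpl14*, *Rpl30*, *Nkiras1* and *Fam69a* were named after their values were seen. The values of some genes covered by this rule are not reported here, and these genes are left out of the plots with gene names. Copies were found with blastn 2.17.0 among GENCODE M21 transcripts on the plus strand. Start windows came from RefSeq (GRCm38.p6). Python 3.11.15 was used for the tables (numpy 2.4.6, pandas 2.3.3) and the figures (matplotlib 3.10.9).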

Additional observations from a re-analysis of the deposited data

Results flagged for a closer look

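Of 120 groups of 4 mice examined (28 members and both summaries in each group), 11 held a mouse whose gap to the nearest other was over the 95% critical value of Dixon's test. Chance gives this in about 1 in 20 groups, here about 6 if no values were tied. In 3 of the 11 groups (*Rpl10*, *Rpl37* and 1 of *Rps15a*) the other 3 mice were all at 0, so the rule was met by construction, and the count is not read against chance. On HFD, control mouse 0 was at 729 FPKM of *Rpl13a* against 453 to 474 FPKM in the other mice, and ASKO mouse 1 at 755 FPKM against 311 to 382 FPKM. The same ASKO mouse was at 302 FPKM of *Rpl41* against 154 to 162 FPKM, and at 16.6 FPKM of *Rpl37* where the others were at 0. In control mice on chow, mouse 3 was at 117 FPKM of *Rpl26* against 51.8 to 57.5 FPKM, mouse 1 at 62.4 FPKM of *Rpl3* against 28.9 to 31.7 FPKM and at 86.2 FPKM of *Rps19* against 50.3 to 55.2 FPKM, and mouse 2 at 4.92 FPKM of *Rps15a* against 0 to 0.571 FPKM. In ASKO mice on chow, mouse 2 was at 53.6 FPKM of *Rpl35* against 28.9 to 31.3 FPKM and mouse 1 at 0.511 FPKM of *Rps15a* where the others were at 0. Control HFD mouse 3 was at 4.84 FPKM of *Rpl10* where the others were at 0. Neither summary (the members' sum and their median) had such a mouse.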

How the results depend on the processing

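The count of members called was 0 in every comparison, and 1 under 3 settings. With quantile normalization it was *Rpl23* for diet averaged over genotypes (limma, adjusted p = 0.0418), where 1001 of all 13148 genes were called. When the fit held just both groups it was *Rpl37* for diet in control mice (limma, adjusted p = 0.0064), where 255 of 13148 were called. With adjustment over 7 contrasts together it was *Rps7* for genotype on HFD, where 17 of 13148 were called. Leaving out each mouse in turn gave 0 to 1 members called for diet in control mice and for diet averaged over genotypes, and 0 elsewhere. For diet in control mice these were *Rps7* (limma, adjusted p = 0.0193) without control chow mouse 0, and *Rpl37* (limma, adjusted p = 0.0237) without ASKO HFD mouse 1. Of all genes, 309 of 12914 and 359 of 12929 were called there. For diet averaged over genotypes it was *Rpl23* (limma, adjusted p = 0.0472) without ASKO chow mouse 2, where 999 of 12933 genes were called. The cause was not tested. The median log2 fold change of members moved by less than the SD between mice of a group (0.419) under every alternative tried (29 or 30 settings in each comparison). That limit is wider than any of the medians themselves, so a change of sign also passed it. The median ran between 0.06 and 0.34 for diet in control mice and between -0.14 and 0.30 in ASKO mice. For genotype it ran between -0.02 and 0.32 on chow and between -0.20 and 0.16 on HFD. For the interaction it ran between -0.44 and 0.15. The share of variance between groups stayed between 14.4% and 20.8%. Without both mice with the highest *AY036118* no member was called. The log2 difference of *Rps7* with copies by genotype on HFD turned from 1.0 to -0.61 without control HFD mouse 2. With the replicate number of the titles as a block, 0 members were called in each comparison. Mice of the same number are different animals. The 24 correlations of their deviations ran from -0.187 to 0.152 over all tested genes and from -0.369 to 0.346 over members. Such correlations cannot show whether mice of the same number were handled together, and this was not tested. Leaving out both *AY036118* mice, keeping only members above 0 in every mouse and adding copies, with or without that mouse, were chosen after the data had been seen. The FPKM values keep no depth, and the median SE of 0.58 on the log2 scale for 4 mice against 4 limits what can be detected.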

Other observations

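Members that were not described above include *Rps15a*, at 0 to 4.92 FPKM in the 8 mice on chow and 0 to 27.8 FPKM on HFD (averaged log2 difference 1.70 ± 0.66, SE, limma, adjusted p = 0.147, and 0.54 ± 0.44 with its copy added, adjusted p = 0.573), *Rpl6l*, at 0 to 20.5 FPKM on chow and 3.66 to 28.9 FPKM on HFD (1.59 ± 0.72, SE, limma, adjusted p = 0.226), and *Rplp2* of the stalk, at 3.91 to 20.7 FPKM in control mice and 17.2 to 85.5 FPKM in ASKO mice on chow, at 0 to 42.1 FPKM in control mice and 13.4 to 35.7 FPKM in ASKO mice on HFD (1.42 ± 0.64 by genotype over both diets, SE, limma, adjusted p = 1, 0.83 without control HFD mouse 2, and 1.05 ± 0.47 with its copy added). *Rpl15* was at 1.79 to 14.8 FPKM in control mice on chow and 0 to 6.09 FPKM in control mice on HFD (adjusted p = 0.238, limma).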
